A study of Homo sapiens with 26 samples.

Results

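The arsenite response of HCT116 cells carrying mCherry-IGF2BP1 S181E was measured in 6 of the 26 RNA libraries of the study, 3 treated with 500 µM sodium arsenite for 2 h and 3 that received PBS. These libraries were chosen by their sample titles, and each held counts for 63086 genes, of which 9099 protein-coding genes were abundant enough to be tested. HCT116 is a human colorectal carcinoma line. The cells carried knockouts of the paralogs IGF2BP2 and IGF2BP3 and a Tet-OsTIR1-PURO transgene (OsTIR1 is a plant F-box protein), and S181E replaces a serine of the first disordered linker of the RNA-binding protein IGF2BP1 by glutamate, which mimics a phosphate. WT cells (mCherry-IGF2BP1 without the exchange) and Y396E cells (a glutamate in the second linker in place of tyrosine) shared the knockouts and OsTIR1, and each gave 3 control and 3 arsenite libraries under the same treatment, from dishes plated independently. The mCherry-IGF2BP1 construct was brought in by viral transduction. The study's methods describe sorting of single HCT116 cells into clones, and its account of the sequencing work describes a population taken through a narrow mCherry gate instead, to avoid effects of picking clones. Each line was thus made separately, and a difference between lines cannot be told apart from a difference that arose in making them. The RNA came from lysates made with NP-40 and cleared by centrifugation, so the values are levels of poly(A) RNA in the cleared lysate and not in the whole cell.

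Sodium arsenite binds closely spaced thiol groups of proteins and causes oxidative and proteotoxic stress. Cells answer with the integrated stress response, in which phosphorylation of eIF2α blocks most translation and favours ATF4, with stress kinases that switch on immediate-early genes such as FOS, JUN and EGR1, and with heat shock factor 1 (HSF1), which drives chaperone genes. NRF2 drives antioxidant genes and MTF1 drives metallothioneins, while untranslated mRNAs gather with G3BP1, TIA1 and IGF2BP1 in stress granules.

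Levels are given as CPM, a gene's count scaled to the protein-coding total of its library with TMM factors, and changes as log2 of arsenite over control with their standard error. For genes that are not protein-coding, counts were scaled to the total of all gene types, with TMM factors of that fit. A gene was called when its Benjamini-Hochberg adjusted p from edgeR's quasi-likelihood test was under 0.05 and its fold change above 1.2. Here "rose" and "fell" are used of called genes only. The 6 libraries held 22508145 to 38007029 counts. Of these, the protein-coding genes took 95.1% to 95.8% in the control and 98.1% to 98.2% in the arsenite libraries, and mitochondrial genes took 11.7% to 14.3% and 7.71% to 9.42%. The standard error of a change was 0.078 in the median gene. Summed levels of the 9 epithelial markers lay between 3477 and 3570 CPM in control and between 4856 and 5036 CPM in arsenite, those of 5 haematopoietic markers at no more than 0.989 CPM, those of 4 endothelial markers at no more than 0.914 CPM, and those of 5 fibroblast markers at 6.78 to 10.97 CPM with 1 marker above 1 CPM. In bulk RNA, fewer cells with a transcript and less of it per cell cannot be told apart.

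The transgene and the deleted paralogs were checked first. IGF2BP1 (chromosome 17, 48997385 to 49056145 in hg38) had 17.95, 17.1 and 20.1 CPM in the control libraries and 42.6, 43.5 and 42.2 CPM in the arsenite libraries, with no overlap, and it rose by 1.21 ± 0.096 (adjusted p = 3.6e-11). Parental HCT116 cells, 1 library per treatment, held 0.343 CPM without and 0.638 CPM with arsenite. RNA of the deleted paralogs was still counted: IGF2BP2 had 80.8, 81.4 and 88.8 CPM in control cells and IGF2BP3 had 159, 162 and 153 CPM, against 119.5 and 91.2 CPM in the parental control library. RNA counts therefore do not check these deletions. In arsenite IGF2BP3 fell to 129.7, 130.5 and 129.9 CPM (log2 change -0.28 ± 0.049), a call that was lost under scaling by library totals, in a fit to the 6 libraries alone, and without S181E arsenite replicate 1 or RQ arsenite replicate 3, and IGF2BP2, at 72.1, 71.8 and 74.7 CPM, was not called (log2 change -0.20 ± 0.055).

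Arsenite changed most of the measured transcriptome of S181E cells within 2 h. Of the 9099 genes, 5944 were called (65.3%), 2913 higher (32%) and 3031 lower (33.3%). The median change over all tested genes was -0.030, and the middle 50% of genes lay between -0.38 and 0.42. Large rises outnumbered large falls. More than 2-fold, 727 genes rose and 190 fell, and more than 4-fold, 49 rose and 14 fell. Genes such as FOS and EGR2, under 10 CPM in control, passed the filter through their arsenite levels. In 5938 of the 5944 called genes the 3 arsenite libraries all lay on one side of the 3 control libraries. The shares of 32% and 33.3% are the background against which the gene groups below are read, and the groups were chosen with earlier results of these data known.

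The sequence upstream of the first transcribed base is shown for 4 genes that rose, because FOS, the HSP70 genes HSPA1B and HSPA8, and MT1X stand for different textbook stress pathways whose motifs are short enough to see. Only genes with a match to the motif of their pathway were shown. The letters were read from RefSeq promoter windows (GRCh38.p14), lower case from 5′ to 3′ on the gene's strand, 250 bases ending just before the start, with matches on either strand in capitals.
FOS (chr14:75278578-75278827, plus strand; capitals, the core TGACG of the cyclic AMP response element): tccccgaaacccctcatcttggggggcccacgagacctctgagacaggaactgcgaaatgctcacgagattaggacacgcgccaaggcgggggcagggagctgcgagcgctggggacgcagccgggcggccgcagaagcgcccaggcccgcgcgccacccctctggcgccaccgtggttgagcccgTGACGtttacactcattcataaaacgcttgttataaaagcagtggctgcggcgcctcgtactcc
HSPA1B (chr6:31827488-31827737, plus strand; capitals, the heat shock element core GAANNTTC): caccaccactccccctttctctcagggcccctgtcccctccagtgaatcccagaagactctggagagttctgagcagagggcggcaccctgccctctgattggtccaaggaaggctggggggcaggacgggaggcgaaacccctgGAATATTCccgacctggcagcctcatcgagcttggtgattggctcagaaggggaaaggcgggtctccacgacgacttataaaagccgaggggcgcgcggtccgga
HSPA8 (chr11:123062137-123062386, minus strand; capitals, the heat shock element core): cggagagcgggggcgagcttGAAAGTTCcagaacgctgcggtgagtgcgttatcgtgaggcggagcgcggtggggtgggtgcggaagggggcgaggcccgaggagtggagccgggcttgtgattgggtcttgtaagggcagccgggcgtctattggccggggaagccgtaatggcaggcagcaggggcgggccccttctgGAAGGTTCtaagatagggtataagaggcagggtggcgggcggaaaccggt
MT1X (chr16:56682220-56682469, plus strand; capitals, the metal response element core TGCNCNC): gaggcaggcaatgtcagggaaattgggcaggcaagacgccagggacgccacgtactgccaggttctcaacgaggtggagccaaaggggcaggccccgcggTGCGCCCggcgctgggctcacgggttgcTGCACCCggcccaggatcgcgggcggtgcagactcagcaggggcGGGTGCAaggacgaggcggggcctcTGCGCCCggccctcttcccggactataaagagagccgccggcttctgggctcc
Windows of 300 bases, 250 before and 50 after the start, were found for 7508 of the 9099 tested genes and for 27305 genes in all. GAANNTTC occurred in 5 of 11 HSP70 and HSP110 windows (45.5%), against 4.16% of the windows of tested genes and 6.87% of all windows. It was in 3 of 20 DNAJ and BAG windows (15%) and in 4 of 20 of the HSP90 and chaperonin list (20%). The windows of HSPH1, BAG3, DNAJB1, DNAJB4, HSP90AA1 and HSP90AB1, which all rose, held no match. That of HSPB1, which was not called, held 1. The amino acid response element core TGATGNAA occurred in 6 of 16 synthetase windows (37.5%), AARS1, CARS1, IARS1, MARS1, NARS1 and TARS1, against 1.45% and 3.67%. TGACG stood in 8 of 9 AP-1 gene windows (88.9%), against 36.4% and 25%, and it overlaps the antioxidant core TGACNNNGC where the letter after TGAC is a G. The metal core TGCNCNC was in 6 of 7 metallothionein and zinc transporter windows (85.7%) but also in 64.5% of the windows of tested genes, so a match says little, and the stretch of MT1X shown holds 4. Over the genes called more than 2-fold higher the shares were near those of all tested genes, at 4.99% for the heat shock core and 3.66% for the AP-1 site TGANTCA, against 4.16% and 3.86%. Windows of genes more than 2-fold lower held TGANTCA in 14 of 155 cases (9.03%) and TATAAA in the same number, against 3.86% and 4.66% of tested genes. These counts are of letters and carry no test.

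The strongest rises were those of immediate-early transcription factors, which need no new protein to be switched on. FOS (chromosome 14, 75278826 to 75282230), a leucine-zipper partner in the AP-1 factor, had 3.75, 3.98 and 4.13 CPM in the control libraries and 1022, 1003 and 1004 CPM in the arsenite libraries. Every arsenite library lay far above every control library, and the change was 7.99 ± 0.098 (adjusted p = 4.39e-27). EGR2, a zinc-finger factor, followed at 1.29, 1.73 and 1.47 CPM in control and 196, 175 and 197 CPM in arsenite (6.99 ± 0.13). FOSB went from 14.2, 16.2 and 17.9 CPM to 1353, 1285 and 1387 CPM (6.37 ± 0.16), and JUN (chromosome 1, 58780791 to 58784047), its partner in AP-1, from 19.6, 18.8 and 22.2 CPM to 1065, 1006 and 1031 CPM (5.67 ± 0.095). EGR1 reached the highest level of these, 1964, 1822 and 2115 CPM from 65.8, 67.5 and 73.9 CPM (4.83 ± 0.099). DUSP1, a phosphatase that switches off the stress kinases p38 and JNK, had 12.4, 12.7 and 12.7 CPM in the control libraries and 259.7, 247 and 256 CPM in the arsenite libraries (4.33 ± 0.065). Control levels of these 6 genes were between 1.29 and 73.9 CPM, and no arsenite library came near a control library.

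Other members of these families moved in both directions. Of 11 tested AP-1 genes 5 rose and 5 fell, so that their median of 0.12 describes none of them. ATF3, a repressor of the ATF family, rose from 42.0, 48.8 and 52.9 CPM to 395.9, 354 and 368 CPM (2.96 ± 0.09). Of 21 tested EGR, NR4A and other immediate-early genes 13 rose and 3 fell (median 0.46), with EGR3 at 2.91 ± 0.14 and the orphan receptor NR4A1 at 2.04 ± 0.11. IER3, an early response gene linked to cell survival, went the other way, from 970.1, 975 and 884 CPM to 476, 507 and 461 CPM (-0.97 ± 0.066). Of 10 MAP kinase phosphatases 3 rose and 4 fell (median -0.0070, and 0.036 under scaling by totals), with the nuclear phosphatase DUSP2 at 2.61 ± 0.072 and the cytoplasmic ERK phosphatase DUSP7 at -1.07 ± 0.076. Others of the 12 largest rises were CCNL1, a cyclin that acts in splicing (41.2, 42.4 and 40.0 CPM in the control libraries and 309.7, 327 and 324 CPM in the arsenite libraries, 2.96 ± 0.055), and NFKBIZ, an atypical nuclear IκB protein (3.55 ± 0.18), besides DDIT3 and HSPA1B described below.

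**Figure D1:**
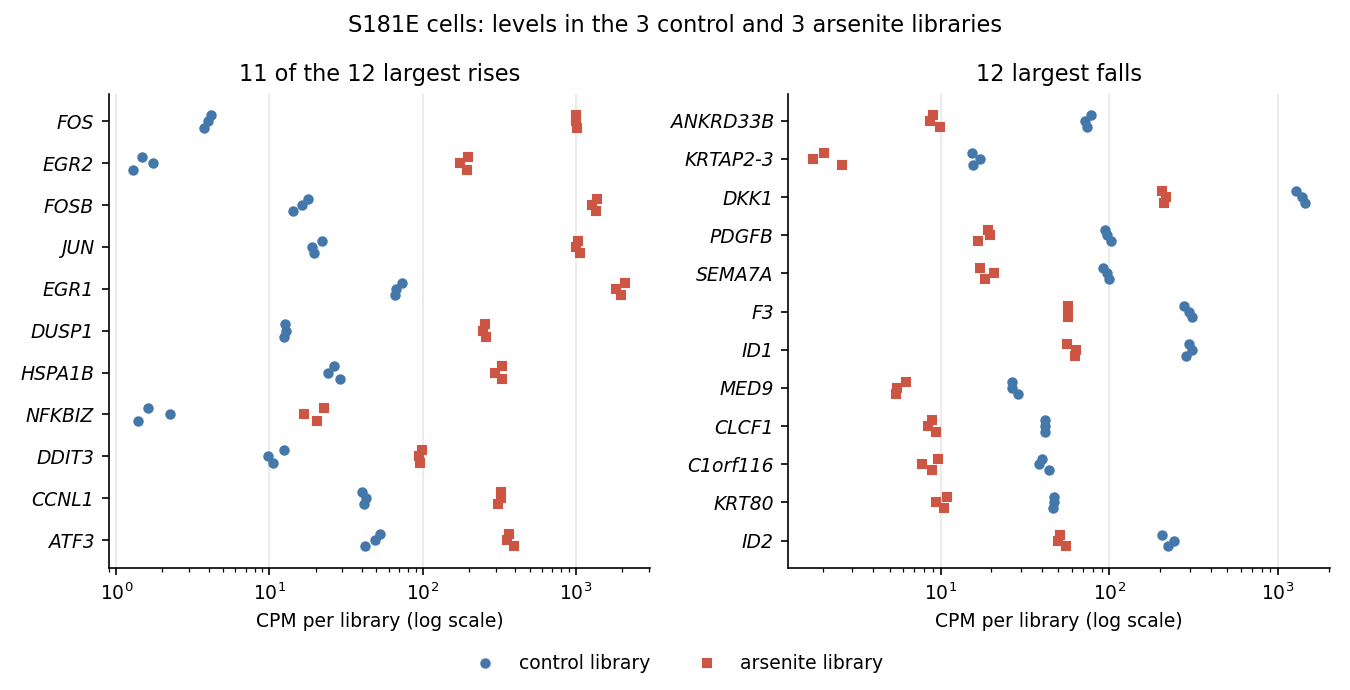
CPM on a log axis in each S181E library for the 12 largest called rises (left, 11 of them shown) and 12 largest called falls (right), with circles for the 3 control and squares for the 3 arsenite libraries. No arsenite library overlapped a control library in any of the 23 genes shown; FOS rose by 7.99 and ANKRD33B fell by 3.01 on the log2 scale.

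Chaperone genes rose together, led by the HSP70 family. Of 8 tested HSP70 and HSP110 genes 7 rose and none fell (median 1.27), against 32% higher and 33.3% lower over all tested genes. HSPA1B (chromosome 6, 31827738 to 31830254), the stress-inducible HSP70, had 28.8, 24.2 and 26.4 CPM in the control libraries and 332, 296 and 328 CPM in the arsenite libraries (3.59 ± 0.081, adjusted p = 1.06e-21). Its coding sequence is nearly identical to that of HSPA1A, so reads may be split between or lost from both, and the level is uncertain. HSPA1A itself was counted at 0.976, 1.03 and 1.25 CPM in control and 12.9, 7.96 and 9.71 CPM in arsenite and lay below the limit of the 9099-gene fit. In a fit that took in protein-coding genes with more than 1 CPM in at least 3 libraries it rose by 3.18 ± 0.24 (adjusted p = 3.54e-11). HSPA6, a strictly inducible HSP70, had 0 CPM in the 3 control and at most 0.124 CPM in the arsenite libraries of S181E cells. It passed the limit of that fit only through libraries of other lines. There it was called higher in S181E cells (adjusted p = 0.0411), and a fold is not given against libraries at 0. HSPA8, the constitutive HSP70, rose from 887, 886 and 865 CPM to 2432, 2341 and 2339 CPM (1.43 ± 0.055), which in CPM was a larger gain than that of HSPA1B. HSPH1, an HSP110 that exchanges the nucleotide of HSP70, rose by 2.04 ± 0.058 and HSPA4L by 1.49 ± 0.083.

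The co-chaperones and HSP90 genes showed which parts of the folding machinery followed. BAG3, a co-chaperone of HSP70 in selective autophagy, had 55.0, 54.0 and 50.6 CPM in the control libraries and 312, 295 and 304 CPM in the arsenite libraries (2.51 ± 0.06). DNAJB1, the J-domain partner of inducible HSP70, had 281, 278 and 273 CPM in the control libraries and 945, 851 and 891 CPM in the arsenite libraries (1.69 ± 0.048), and DNAJB4 reached 1.46 ± 0.071. Yet of 20 tested DNAJ and BAG genes only 9 rose while 4 fell (median 0.15). Of 21 HSP90, chaperonin, small heat shock protein and HSF genes 14 rose and 1 fell (median 0.67). HSP90AB1, the constitutive cytosolic HSP90, had 1321, 1303 and 1317 CPM in the control libraries and 4614, 4637 and 4579 CPM in the arsenite libraries (1.81 ± 0.082), and HSP90AA1, the inducible form, rose by 1.31 ± 0.072. The small heat shock protein HSPB1, at 466, 477 and 463 CPM in control and 477, 451 and 420.2 CPM in arsenite, did not pass the test (-0.06 ± 0.05), and neither did HSF1, the regulator of the group (-0.016 ± 0.049, adjusted p = 0.771). HSF2 rose by 1.24 ± 0.10.

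Genes that deal with damaged protein rose next to the chaperones. ZFAND2A, an arsenite-inducible partner of the proteasome, had 23.1, 22.1 and 21.4 CPM in the control libraries and 70.3, 60.3 and 61.1 CPM in the arsenite libraries (1.52 ± 0.075, adjusted p = 4.97e-15). With VCP, the segregase that extracts ubiquitylated proteins (1.33 ± 0.076), 10 of 17 tested autophagy receptor and polyubiquitin genes rose and 3 fell (median 0.42). SQSTM1, the autophagy receptor p62, rose by 0.40 ± 0.05. Proteasome subunits moved less. Of 29, 11 rose, 1 fell and 17 were not called (median 0.16), with PSMD1, the largest subunit of the regulatory particle, far above the rest at 1.61 ± 0.062 and PSMD2 next at 0.59 ± 0.069. In the endoplasmic reticulum 11 of 21 chaperone and quality-control genes rose and 3 fell (median 0.36). HERPUD1, a component of ER-associated degradation, rose by 1.77 ± 0.067, XBP1, the transcription factor of the unfolded protein response, by 0.83 ± 0.079, and HSPA5 (BiP) by 0.68 ± 0.091.

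In the integrated stress response ATF4 mRNA fell while several genes downstream of it rose. ATF4, the factor whose translation the pathway favours, fell from 753, 780.3 and 801 CPM to 585, 583 and 570.5 CPM (-0.43 ± 0.045, adjusted p = 5.75e-09). DDIT3 (CHOP; chromosome 12, 57516588 to 57521737), its proapoptotic target, had 10.5, 9.80 and 12.5 CPM in the control libraries and 96.4, 95.5 and 99.8 CPM in the arsenite libraries (3.14 ± 0.09). PPP1R15A (GADD34), which directs dephosphorylation of eIF2α, had 112, 117 and 124 CPM in the control libraries and 558, 545 and 559 CPM in the arsenite libraries (2.24 ± 0.054). DDIT4, an inhibitor of mTORC1, rose by 2.52 ± 0.10, and the pseudokinase TRIB3 was not called (0.27 ± 0.12, adjusted p = 0.0562). As a list the 16 tested members were divided, with 5 higher and 5 lower (median 0.19). CHAC1, a glutathione-degrading ATF4 target, lay below the limit of the 9099-gene fit at 2.93, 2.91 and 2.85 CPM in control and 10.9, 9.63 and 9.29 CPM in arsenite, and rose by 1.75 ± 0.19 in the fit with the limit of 1 CPM (adjusted p = 1.65e-08).

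Every one of the 20 cytosolic aminoacyl-tRNA synthetases, which load amino acids onto tRNAs, rose, with changes from 0.33 to 2.06 and a median of 0.75. EPRS1, which charges glutamate and proline, had 52.9, 51.9 and 55.4 CPM in the control libraries and 219.6, 220.0 and 227 CPM in the arsenite libraries (2.06 ± 0.048). AARS1 had 69.0, 59.0 and 67.7 CPM in the control libraries and 229.7, 219 and 230.2 CPM in the arsenite libraries (1.79 ± 0.089), LARS1 rose by 1.63 ± 0.061 and GARS1 by 0.80 ± 0.071. The members of amino acid synthesis and transport were split instead, with 8 of 16 higher and 7 lower (median 0.13). ALDH18A1, of proline synthesis, rose by 1.19 ± 0.052, and the leucine transporter SLC7A5 fell from 979, 959.6 and 936 CPM to 491, 493 and 489 CPM (-0.96 ± 0.057).

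Antioxidant and metal-response genes changed little as groups. Of 24 tested NRF2 targets 8 rose and 6 fell (median 0.036), close to the background shares. HMOX1, which breaks down heme, had 21.8, 20.6 and 20.9 CPM in the control libraries and 42.4, 42.2 and 41.7 CPM in the arsenite libraries (1.00 ± 0.10), and OSGIN1 rose by 1.08 ± 0.092. TXNRD1, the cytosolic thioredoxin reductase and an arsenite-binding enzyme, fell from 714, 748 and 708 CPM to 395.98, 400.5 and 391 CPM (-0.87 ± 0.042). GCLM, of glutathione synthesis, and NFE2L2, which encodes NRF2, were not called (-0.11 ± 0.06 and -0.017 ± 0.051). Of 6 tested metallothionein and zinc transport genes 2 rose and 1 fell (median -0.099). SLC39A10, of zinc transport, rose by 0.35. The metallothionein MT1F, too low for that test, had 6.36, 6.59 and 7.14 CPM in control and 5.08, 5.19 and 4.50 CPM in arsenite. In the fit with the limit of 1 CPM, MT1F fell (-0.48 ± 0.17, adjusted p = 0.0153), in the opposite direction to MT1X. MT1X, a metal-binding metallothionein, had 24.2, 20.1 and 20.5 CPM in the control libraries and 61.6, 61.7 and 56.3 CPM in the arsenite libraries (1.47 ± 0.12), whereas SLC30A1, the zinc exporter that MTF1 also drives, fell to 46.6, 41.6 and 51.3 CPM from 98.1, 92.2 and 93.3 CPM (-1.02 ± 0.11).

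Genes for the ribosome itself went down almost as a block. Of 76 tested cytosolic ribosomal protein genes 67 fell, none rose and 9 were not called (median -0.47). The falls were small in size, no more than 0.75 on the log2 scale. RPS12 had 2323, 2417 and 2266 CPM in the control libraries and 1417, 1424 and 1340.1 CPM in the arsenite libraries (-0.74 ± 0.065), RPSA fell by 0.73 and RPS6 by 0.47 on the same scale, while RPL3 stayed uncalled (-0.06 ± 0.056). Ribosome biogenesis genes moved the other way, with 22 of 36 higher and 6 lower (median 0.49), among them NOP58 of the box C/D particles (1.43 ± 0.068), the helicase DDX10 (1.53 ± 0.087) and nucleolin, NCL (0.68 ± 0.091). The 34 tested translation factors had no common direction, with 8 higher and 9 lower (median -0.012, and 0.032 under scaling by totals). EIF5B, which joins the subunits, rose by 1.53 ± 0.079, EIF3A, the largest eIF3 subunit, by 1.33 ± 0.067, and EEF2, the translocase, from 2035, 2005 and 2096 CPM to 4067, 4082 and 4079 CPM (0.99 ± 0.049). PABPC1, the cytoplasmic poly(A)-binding protein, fell by 0.34, and EEF1A1, the most abundant of them, was not called (-0.061 ± 0.042). EIF4A1, which every cell needs, is listed at 0 in all 6 libraries, so for such genes the files give no level.

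RNAs of the respiratory chain fell from both genomes. Of 74 nuclear genes of complexes I to V 48 fell and 9 rose (median -0.36), for example NDUFA1 (-0.70 ± 0.066) and UQCRH (-0.69 ± 0.06), against a rise of SDHA, the flavoprotein of complex II (0.76 ± 0.11). Of the 13 mitochondrially encoded mRNAs 8 fell and none rose (median -0.47). MT-ND6, the one mRNA of the light strand, had 199, 163 and 135 CPM in the control libraries and 44.01, 41.5 and 34.1 CPM in the arsenite libraries (-2.06 ± 0.23), a steeper fall than that of MT-ND1 (-0.81 ± 0.11) or MT-CO1 (-0.40 ± 0.13). MT-CO1 stood at 18839.7, 17717 and 16069 CPM in control libraries and 14079, 14072 and 11794 CPM in arsenite libraries, and its call was lost without arsenite replicate 3.

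Genes of mitosis rose after only 2 h. Of 25 tested, 23 rose and none fell (median 0.95). TTK, a spindle checkpoint kinase, had 19.02, 18.2 and 16.8 CPM in the control libraries and 77.3, 81.0 and 81.8 CPM in the arsenite libraries (2.15 ± 0.097). TOP2A, the topoisomerase that untangles chromosomes, rose by 2.09 ± 0.056, the kinesin KIF20A by 2.05 ± 0.064, cyclin B1 (CCNB1) by 0.81 ± 0.057 and the kinase PLK1 by 0.75 ± 0.054. Of 33 replication and G1/S genes 16 rose and 9 fell (median 0.14). RRM1, of ribonucleotide reductase, rose by 1.54 ± 0.068 and the helicase subunit MCM2 by 1.11 ± 0.10, while cyclin E1, CCNE1, fell (-0.63 ± 0.09). p53 targets were mixed, with 6 of 20 higher and 7 lower (median -0.041, and 0.0020 under scaling by totals). MDM2, the ubiquitin ligase that restrains p53, fell from 159, 166 and 164 CPM to 67.9, 67.4 and 74.2 CPM (-1.22 ± 0.098), GADD45B rose by 0.82 ± 0.051, and CDKN1A was not called (-0.13 ± 0.043).

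Genes for proteins that act on RNA were more often higher than lower. Of 24 stress granule proteins 17 rose and 1 fell (median 0.46). G3BP1, the scaffold of the granules, had 128, 129 and 127 CPM in the control libraries and 207, 214 and 207 CPM in the arsenite libraries (0.71 ± 0.061), TIA1 rose by 0.76 ± 0.075, ATXN2 by 1.47 ± 0.065 and PRRC2C by 1.503 ± 0.064. Of 18 genes that write, erase or read m6A 12 rose and 3 fell (median 0.60), with RBM15, an adaptor of the writer complex, at 1.57 ± 0.077, its catalytic subunit METTL3 at 1.09 ± 0.083 and the reader YTHDF2 at 0.60 ± 0.048. Of 19 SR splicing factors and their kinases 13 rose and 3 fell (median 0.49). CLK1, a kinase of SR proteins, had 16.6, 17.5 and 16.1 CPM in the control libraries and 75.7, 71.1 and 78.4 CPM in the arsenite libraries (2.17 ± 0.065), and CLK2 and CLK3 rose by 1.24 ± 0.10 and 1.21 ± 0.086.

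HEXIM1, the inhibitor of the elongation kinase P-TEFb, had 113, 114 and 112 CPM in the control libraries and 355, 353 and 356 CPM in the arsenite libraries, with no overlap and little spread (1.65 ± 0.044). Of the 14 genes of P-TEFb, its 7SK complex and the BRD family 6 rose and 1 fell (median 0.17). Of 15 mRNA decay regulators 7 rose and 4 fell (median 0.24), with ZFP36, which binds AU-rich elements, at 52.5, 48.7 and 44.3 CPM in control and 194, 198 and 194 CPM in arsenite (2.01 ± 0.061), and TOB1, which recruits deadenylases, at 1.53 ± 0.058. Of the 15 tested RNAs described as IGF2BP targets, the paralogs included, 5 rose and 6 fell (median 0.044). CTNNB1 (β-catenin) had 118, 109 and 116 CPM in the control libraries and 294, 295 and 307 CPM in the arsenite libraries (1.39 ± 0.069), MYC fell to 273, 273 and 261 CPM from 480.3, 451 and 448 CPM (-0.77 ± 0.051), HMGA2 fell by 0.85, and ACTB was not called (0.22 ± 0.05). Of the 10 genes that the study's text names, 3 rose and 4 fell (median 0.11), and those were picked by the study on these samples.

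The 12 largest falls included several secreted and signalling genes. ANKRD33B, an ankyrin-repeat gene, had 73.4, 71.8 and 77.8 CPM in the control libraries and 9.98, 8.70 and 9.04 CPM in the arsenite libraries (-3.01 ± 0.085, adjusted p = 7.34e-20). DKK1 (chromosome 10, 52314281 to 52317657), a secreted inhibitor of Wnt signalling, had 1447, 1394 and 1281 CPM in the control libraries and 210.3, 216 and 205 CPM in the arsenite libraries (-2.71 ± 0.089), by CPM the heaviest loss of the 12. PDGFB, a growth factor, fell by 2.40, SEMA7A, a membrane semaphorin, by 2.36, F3, the tissue factor that starts coagulation, by 2.36 and CLCF1, a cytokine of the IL-6 family, by 2.22. The other falls of the 12 were KRTAP2-3 (-2.91), MED9 of the Mediator complex (-2.25), C1orf116 (-2.22), the keratin KRT80 (-2.18), ID1 and ID2. ID1, an inhibitor of basic helix-loop-helix factors and a BMP target, had 284, 307 and 297 CPM in the control libraries and 62.6, 63.1 and 56.2 CPM in the arsenite libraries (-2.29 ± 0.086), and ID2 went from 222, 243 and 206 CPM to 55.3, 49.7 and 51.2 CPM (-2.10 ± 0.065).

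Among the feedback genes of growth-factor pathways in the 9099-gene fit falls outnumbered rises. Of 7 tested ID and inhibitory SMAD genes 5 fell and 1 rose (median -1.21), the riser being SKIL (1.58 ± 0.18), a SMAD co-repressor. Of 14 EGF receptor ligands and feedback genes 8 fell and 2 rose (median -0.62). EREG, a ligand of the receptor, had 879, 879.7 and 788 CPM in the control libraries and 269.5, 272 and 277 CPM in the arsenite libraries (-1.64 ± 0.07), and ERRFI1, its intracellular inhibitor, went from 1195, 1210.2 and 1237 CPM to 468, 469.6 and 489.8 CPM (-1.35 ± 0.038), whereas the ligand HBEGF rose (0.84 ± 0.088). Wnt feedback genes gave 4 falls among the 7 in that fit and no rise (median -0.53), but the members of lower level went the other way. AXIN2, the best known of them, had 3.40, 3.43 and 2.42 CPM in control and 5.81, 5.46 and 6.79 CPM in arsenite and rose by 0.94 ± 0.26 in the fit with the limit of 1 CPM (adjusted p = 0.00283). RNF43, which removes Wnt receptors, rose there by 0.80 ± 0.22 and the transcription factor SP5 by 1.01 ± 0.32. Of 15 SRF and YAP targets of the cytoskeleton 8 fell and 2 rose (median -0.36), with AJUBA at -1.48 ± 0.069 and the actin cross-linker FLNA at 1.58 ± 0.059. NF-κB genes were divided (6 of 13 higher, 4 lower, median 0.085). NFKB2 rose by 1.59 ± 0.065 and TNFAIP3 by 1.40 ± 0.17, while NFKBIA, the inhibitor that NF-κB induces first, had 41.0, 42.8 and 41.4 CPM in the control libraries and 40.5, 43.1 and 40.0 CPM in the arsenite libraries and was not called.

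Among metabolic groups, 14 of 24 cholesterol synthesis genes rose and 4 fell (median 0.30), for example HMGCS1, the synthase that acts early in the pathway (0.81 ± 0.081). Of 25 lysosomal genes 10 rose and 2 fell (median 0.21), for example the cholesterol exporter NPC1 (0.96 ± 0.17), and of 16 genes of glucose metabolism and the arrestins 8 rose and 2 fell (median 0.28), for example hexokinase HK1 (1.31 ± 0.11). TXNIP, a much used marker of that group, is listed at 0 in every library. Tubulin genes gave 7 rises in 9 and no fall (median 0.56), with TUBB2A at 1.48 ± 0.076. Of 9 histone genes 4 rose and 3 fell (median 0.12), from H1-2 (0.90 ± 0.11) to H2AZ2 (-0.72 ± 0.07).

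**Figure D2:**
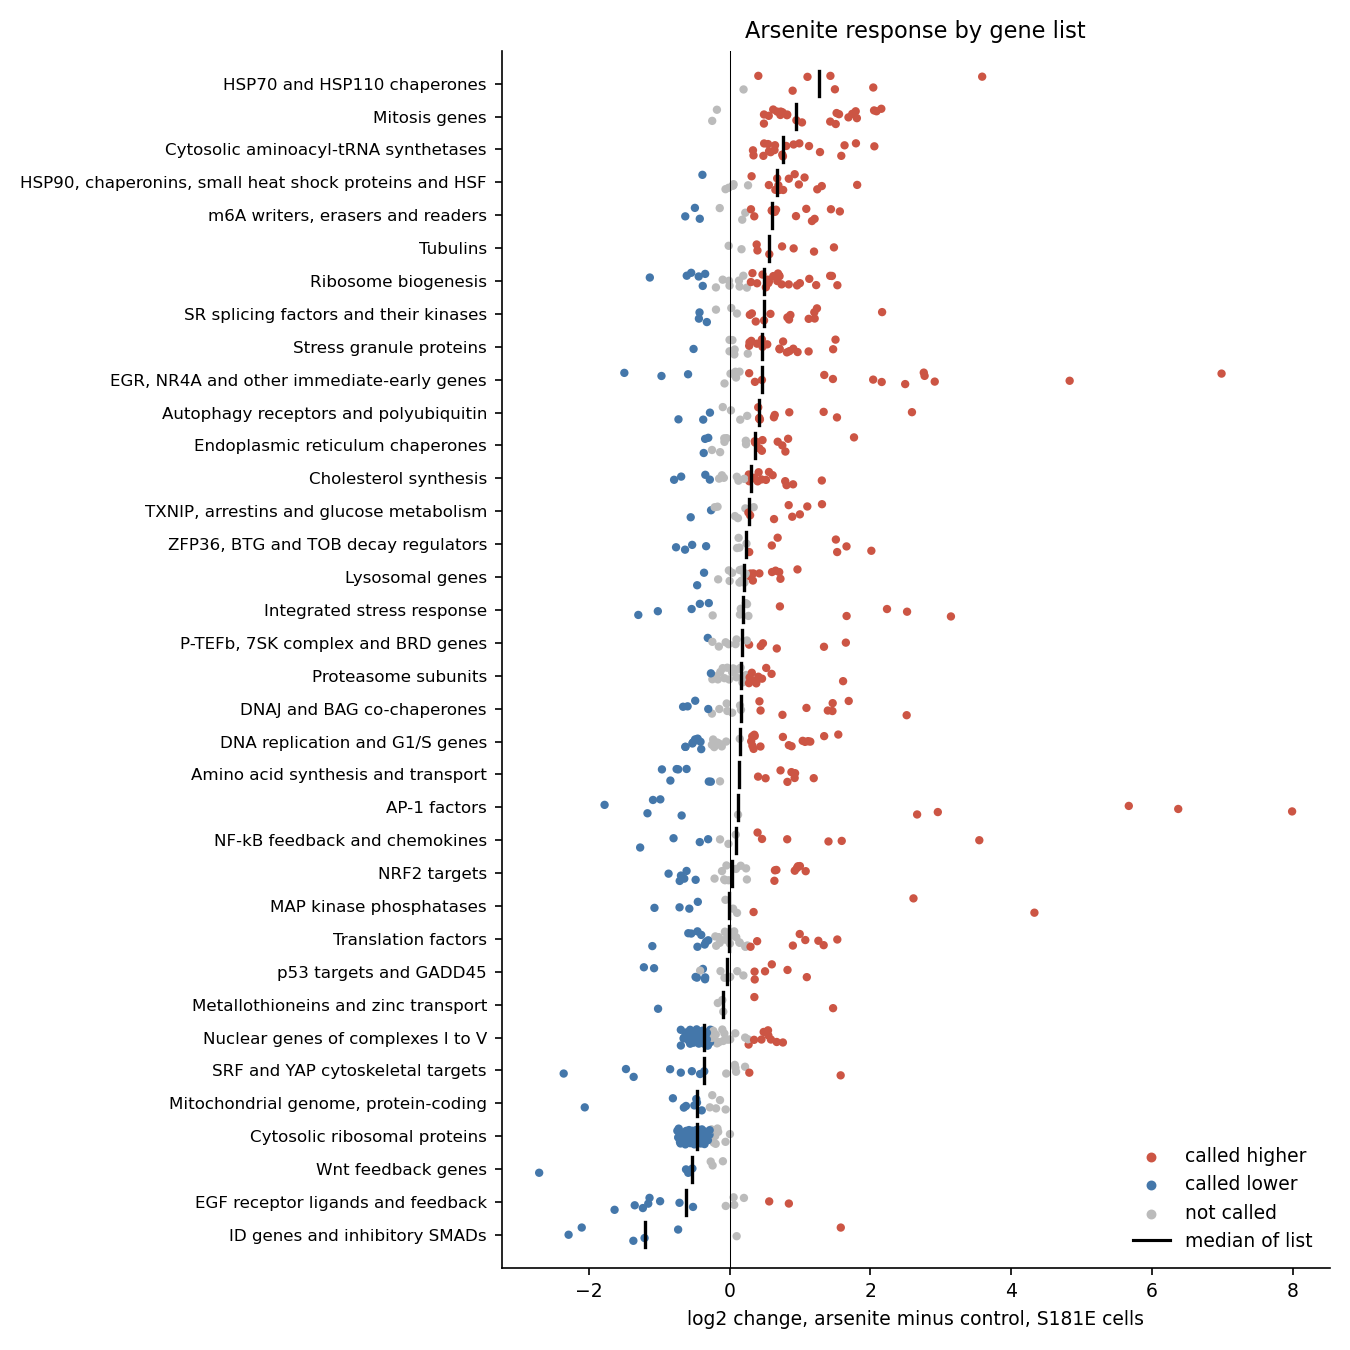
Log2 change of arsenite over control in S181E cells for each tested gene (points) of 36 lists, ordered by list median (black bar), coloured by call. The HSP70 list has the highest median (1.27), with all but 1 gene called higher, and the ID and inhibitory SMAD list the lowest (-1.21); ribosomal proteins form a narrow cluster with 67 of 76 called lower.

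A feature that no list used separated rises from falls more than most of the lists did. Genes were grouped by the number of exons of their canonical transcript in GENCODE release 44. Of the 3452 genes with 1 to 7 exons 448 rose and 1889 fell, with a median of -0.31 and quartiles of -0.55 and -0.0080. Of the 3102 genes with 8 to 14 exons 964 rose and 823 fell (median 0.028). Of the 2545 genes with 15 or more exons 1501 rose and 319 fell, with a median of 0.42 and quartiles of 0.00 and 0.86. Each arsenite library on its own, set against the control mean, gave nearly the same medians, -0.30 to -0.33 for the fewest exons and 0.40 to 0.42 for the most. The genes that rose more than 2-fold made up 19.3% of the class with 15 or more exons, and 2.39% of genes with 4 to 7.

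The order by exons was seen at every gene length. Among genes with the shortest exon sequence (207 to 2908 bases), the medians for 1 to 7, 8 to 14 and 15 or more exons were -0.31, 0.070 and 0.49. Among as many genes with the longest (5142 to 38212 bases) they were -0.36, -0.11 and 0.34, so the step between the shortest and the longest genes was smaller than that between exon classes. Splitting by the span of the gene on the chromosome gave -0.32, 0.059 and 0.51 for the shortest spans and -0.33, -0.065 and 0.34 for the longest. WT cells, which share no library with S181E cells, had the same order, with -0.43, 0.077 and 0.58 for genes with the shortest exon sequence. The lists above differ in this respect too. The median exon number was 17 for the synthetases, 18 for mitosis genes and 15.5 for the HSP70 and HSP110 genes, against 5 for ribosomal proteins and 4 for the nuclear genes of complexes I to V. Immediate-early genes, with 13 of 21 higher, had few exons (median 4). The level in untreated cells went with the change as well. The 1820 genes with the lowest control levels (up to 18.1 CPM) had a median change of 0.36 and the 1820 with the highest (103.6 CPM and above) one of -0.26, and part of this order is set by the filter, which a gene low in control passed only if it was higher elsewhere. The part that exon number or level plays in any list's change was not tested. Genes are not independent replicates, and these medians carry no test.

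**Figure D3:**
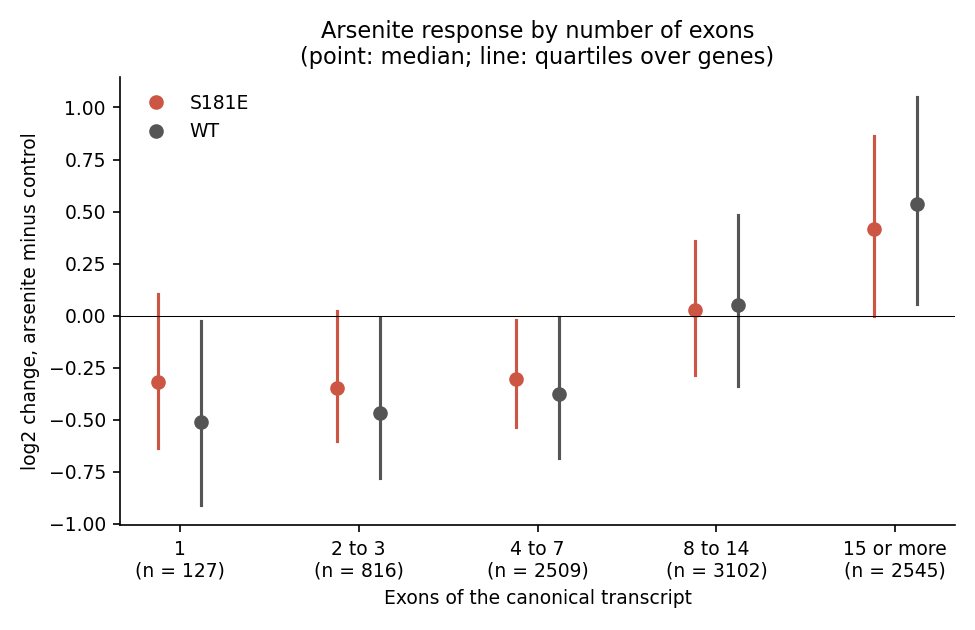
Log2 change of arsenite over control by number of exons of the canonical transcript, for S181E (red) and WT cells (grey), as median (point) and quartiles over genes (line). In S181E cells the medians are near -0.3 up to 7 exons, 0.028 at 8 to 14 and 0.42 at 15 or more.

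Beyond protein-coding genes, a fit to all gene types with more than 1 CPM in at least 3 libraries called 7446 of 13632 genes (54.6%). Of the 1610 that were not protein-coding, 132 rose (8.2%) and 327 fell (20.3%), and long non-coding RNAs gave 102 rises and 269 falls among 1309. By the rule of largest change the rises were led by RNAs near the floor, ENSG00000289865 at 0.18, 0.105 and 0.025 CPM in control and 4.39, 5.17 and 4.88 CPM in arsenite, and ENSG00000291338 at 0.03, 0.07 and 0 and 1.13, 1.56 and 1.64 CPM. SCARNA17, a guide RNA of Cajal bodies, and the pseudogene CHMP4BP1 followed, with at most 0.101 CPM in any control library and at most 1.03 and 1.47 CPM in any arsenite library. The falls were led by small nucleolar and mitochondrial transfer RNAs that poly(A) selection hardly retains, SNORD87, SNORA24, SNORA73B, MT-TA and MT-TQ. SNORD87 stood at 1.11, 1.55 and 1.19 CPM in untreated cells and 0, 0.038 and 0 CPM after arsenite, and a fold is not given against libraries at 0.

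More abundant non-coding RNAs were picked after their values had been seen. The mitochondrial ribosomal RNAs fell more than any mitochondrial mRNA of the heavy strand. MT-RNR1 had 6592, 6418 and 4539 CPM in the control libraries and 940.3, 869 and 629 CPM in the arsenite libraries (-2.85 ± 0.22), and MT-RNR2 fell by 2.14. NORAD, which binds the PUMILIO proteins, had 212, 211 and 218 CPM in the control libraries and 77.7, 76.7 and 86.8 CPM in the arsenite libraries (-1.41 ± 0.053), and the snoRNA host genes SNHG3, SNHG4 and SNHG16 fell by 1.23, 1.41 and 1.18 while SNHG1 (0.046) and GAS5 (0.13) were not called. MALAT1, a nuclear RNA, had 57.6, 57.3 and 56.6 CPM in the control libraries and 239, 218 and 225 CPM in the arsenite libraries (1.99 ± 0.11), and NEAT1, the nuclear RNA of paraspeckles, fell (-0.70 ± 0.096). How much nuclear RNA entered the cleared lysate was not measured.

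S181E and WT cells, compared by the difference of their arsenite responses, differed in 1491 of the 9099 genes (16.4%), 635 with a higher (6.98%) and 856 with a lower log2 change in S181E (9.41%). The response was smaller in size in S181E in 1320 of the 1491 and larger in 171. Among the 7060 genes called in either line the median size was 0.49 in S181E and 0.63 in WT. Direction was shared. Of the genes called in S181E 5446 were called in WT in the same direction and 3 in the opposite one. The balance of the differences depended on scaling, with 42.6% of them higher under TMM and 13.0% under library totals, where the median difference of all genes moved from -0.030 to -0.14, but 1719 of the 1972 genes called under totals again had the smaller response in S181E. Without WT control replicate 2 the number fell to 748, with 312 higher and 436 lower.

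Most of these differences lay in the untreated cells. In 1215 of the 1491 genes the gap between S181E and WT was wider in the control than in the arsenite libraries. Genes with a lower log2 change stood higher in untreated S181E than in untreated WT cells, by 0.33 in the median, against -0.047 after arsenite, and those with a higher change stood lower, by -0.35 against 0.031. Mitochondrial genes took 21.1% to 26.9% of the counts in WT control libraries and 11.7% to 14.3% in those of S181E, and 10.8% to 12.3% and 7.71% to 9.42% after arsenite. Their part in the differences was not tested.

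**Figure D4:**
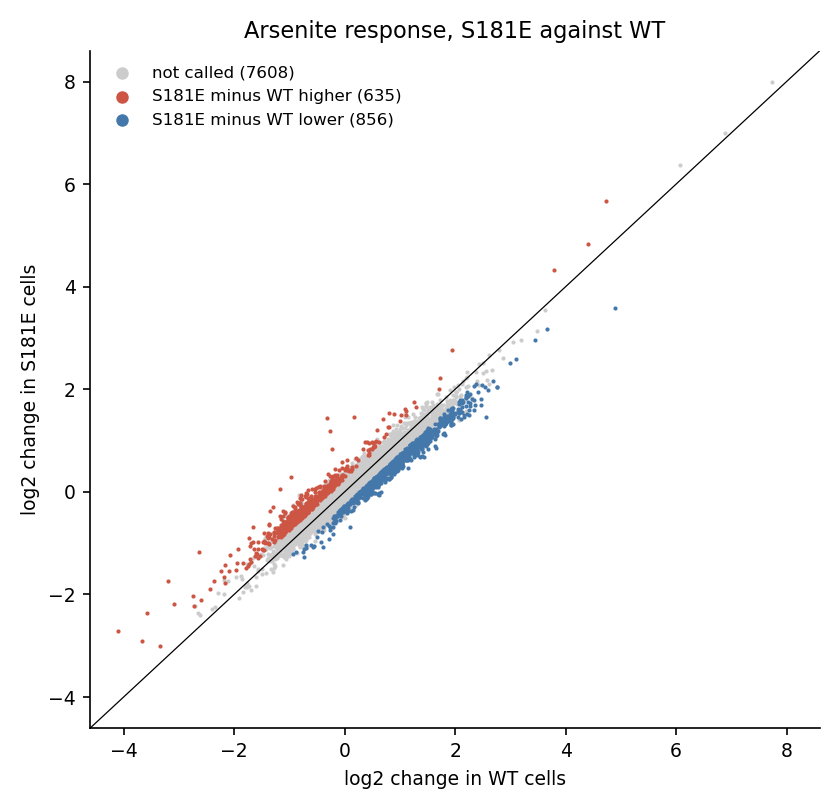
Log2 change in S181E cells against that in WT cells for 9099 genes, with genes whose difference was called coloured and the line of equal change drawn. The 856 genes with a lower change in S181E lie mostly at rises and the 635 with a higher change mostly at falls, so that the coloured points lie nearer to 0 on the S181E axis.

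The heat shock genes HSPA1B, DNAJB4 and DNAJB1 differed between the lines mainly after arsenite. HSPA1B reached 318 ± 19.9 CPM in S181E and 706 ± 9.98 CPM in WT (SD, n = 3) from 26.4 ± 2.28 and 23.6 ± 2.15 CPM, a difference of -1.32 ± 0.11 (adjusted p = 7.74e-08). DNAJB4 reached 38.9 ± 3.09 against 70.2 ± 1.72 CPM (-1.10 ± 0.1) and DNAJB1 896 ± 47.3 against 1646 ± 17.2 CPM (-0.77 ± 0.066), from 14.1 ± 0.719 and 11.9 ± 0.608 CPM for DNAJB4 and 277 ± 4.201 and 298 ± 0.633 CPM for DNAJB1 in control. HSP90AB1 and HSP90AA1, which encode cytosolic HSP90, differed in the control cells instead. HSP90AB1 stood at 1314 ± 9.40 CPM in untreated S181E and 865 ± 119 CPM in untreated WT cells, and reached 4610.1 ± 29.1 and 4780.3 ± 63.1 CPM. HSP90AA1 stood at 1542 ± 46.2 and 996 ± 112 CPM, and reached 3819 ± 21.1 and 3781 ± 51.5 CPM. Of the 8 HSP70 and HSP110 genes 6 had a lower change in S181E than in WT, of the 21 HSP90 and chaperonin genes 13, of the 20 DNAJ and BAG genes 7, and in these 3 lists none had a higher one. Over all tested genes 9.41% had a lower and 6.98% a higher change. PARP1, an enzyme of DNA repair, also had a large negative difference (-0.78 ± 0.15), and there the control levels differed, 207 ± 21.8 CPM in S181E and 108 ± 23.2 CPM in WT, more than the arsenite levels of 376 ± 7.43 and 339.5 ± 7.91 CPM.

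The most positive differences given here, of ANGPTL4, WNT9A and MERTK, were of secreted or membrane proteins that started from lower levels in S181E. DKK1, also secreted (1.39 ± 0.12), started higher, at 1374 CPM in S181E against 903 CPM in WT. After arsenite it stood at 210 and 52.7 CPM. ANGPTL4, a lipase inhibitor, rose from 4.73 ± 0.623 to 12.9 ± 0.242 CPM in S181E (1.45 ± 0.13), while in WT it had 14.1 ± 0.98 and 11.3 ± 1.85 CPM, a difference of 1.77 ± 0.18 (adjusted p = 8.24e-07). WNT9A, a Wnt ligand, fell in both, from 14.7 ± 1.22 to 6.61 ± 0.696 CPM in S181E and from 36.2 ± 2.48 to 5.87 ± 0.861 CPM in WT (1.47 ± 0.22), and MERTK, a receptor kinase, rose in S181E (1.18 ± 0.13) and fell in WT (-0.27), with a difference of 1.45 ± 0.18. JUN and DUSP1 also rose by more in S181E than in WT (0.95 ± 0.12 and 0.54 ± 0.087), whereas FOS, EGR2 and FOSB had no called difference (0.26 ± 0.14 for FOS). Of the lists, 20 of 25 mitosis genes, 13 of 33 replication genes, 10 of 24 stress granule genes and 9 of 20 synthetases had a lower change in S181E, and 7 of 13 mitochondrially encoded mRNAs a higher one. Over all 9099 genes 856 had a lower (9.41%) and 635 a higher change (6.98%). Under library totals the list counts were 24, 19, 18, 15 and 7 in the same order. Under that scaling lower changes were more frequent over all genes too, at 1716 of 9099, with 256 higher. Of 25 lysosomal genes 9 had a higher and 1 a lower change, a balance that did not hold under library totals, where 4 were higher and 3 lower.

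**Figure D5:**
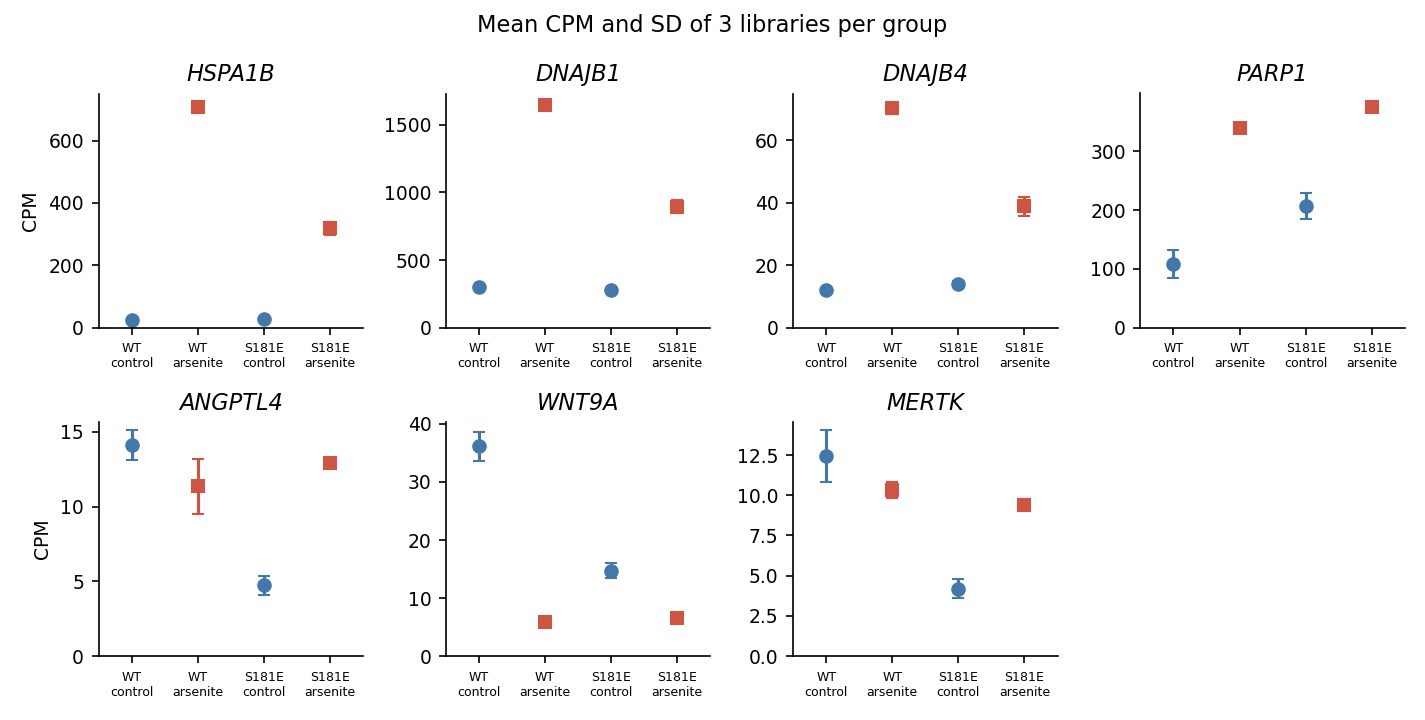
Mean CPM with SD of 3 libraries (bars hidden where smaller than the symbol) in WT and S181E cells, control (circles) and arsenite (squares), for the 4 most negative (top) and 3 of the 4 most positive (bottom) differences between the responses. HSPA1B, DNAJB1 and DNAJB4 differ after arsenite, while PARP1, ANGPTL4, WNT9A and MERTK differ more in control cells.

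Between S181E and Y396E cells, the other line with a glutamate in a linker, no gene passed the test for a different response (0 of 9099 by edgeR's quasi-likelihood test, and 0 by DESeq2). Unadjusted p-values under 0.05 were found for 376 genes (4.13%), and the smallest adjusted p was 0.853. The median size of the difference was 0.084 at a median standard error of 0.11, so differences of that size were not detectable. HSPA1B, for example, changed by 3.59 ± 0.081 in S181E and 3.73 in Y396E, and ANGPTL4 by 1.45 ± 0.13 and 1.42. One of the 3 Y396E arsenite libraries stood apart in detecting 13897 genes, where each of the remaining libraries of the fit detected 20850 or more, and without it there were again 0 calls. This comparison uses the same S181E libraries as the one with WT, so the pair are not independent.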

How the data were processed

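Poly(A) RNA from cleared lysates of HCT116 cells was sequenced as single reads. Per the labels and the methods, the authors aligned reads with STAR 2.7.11b to hg38 and counted them per gene with featureCounts of Subread 2.0.6 on GENCODE annotation, stranded, and the deposited counts are whole, unnormalised numbers. IDs were named through GENCODE release 44 (62541 of 63086 matched). A model of 24 libraries (8 groups of 3, among them the arginine-to-glutamine line RQ, which served only the shared estimate of spread) was fitted with edgeR 4.0.16 (quasi-likelihood test, TMM factors, R 4.3.3) to protein-coding genes with more than 10 CPM in at least 12 libraries. The fit to all gene types used more than 1 CPM in at least 3. Responses of lines were compared by the difference of differences. Standard errors were derived from the F statistic. The 2 parental libraries, 1 per treatment, entered no test. DESeq2 1.42.0, RLE factors, library totals, other filters, other thresholds, the replicate number as a block, fits to only the groups compared and leaving out each library were alternatives. The edgeR fit was tested on simulated counts for the arsenite contrast in S181E cells only.

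The S181E libraries held 22508145 to 38007029 counts. Named genes were the 12 largest called rises and falls, whose libraries did not overlap, in each list the 3 members with the largest changes and the members fixed as leading ones, the targeted genes and their paralogs, the 4 most positive and 4 most negative called differences between lines, and the 5 largest rises and falls among non-coding genes. The lines, lists and genes were chosen with earlier results of these data known. Results of a few of these genes are not reported here. Columns other than the counts of each file were not used. Dishes were plated independently, so p-values measure the spread between dishes of one line.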

Additional observations from a re-analysis of the deposited data

Results flagged for a closer look

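Between S181E and WT cells 1491 genes differed in their response by edgeR's test of the interaction (Benjamini-Hochberg adjusted p under 0.05 and a difference above 1.2-fold). Of the 176 named genes tested 70 were among them, 21 with a higher and 49 with a lower log2 change in S181E. For 67 of them the values are given here, as S181E minus WT on the log2 scale, for 3 against 3 libraries in each line.

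The chaperone, co-chaperone and protein disposal genes named here had a smaller log2 change in S181E. The differences were -1.32 for HSPA1B, -0.72 for HSPH1, -0.49 for HSPA8 and -0.47 for HSPA4L among HSP70 and HSP110 genes. Co-chaperones gave -1.10 for DNAJB4, -0.77 for DNAJB1 and -0.48 for BAG3, and HSP90 genes gave -0.66 for HSP90AB1 and -0.62 for HSP90AA1. In protein disposal they were -0.49 for VCP, -0.47 for ZFAND2A, -0.28 for SQSTM1, -0.32 for PSMD2, -0.31 for PSMD1 and -0.28 for PSMD12. In part of these genes the gap lay in untreated cells. PSMD2 stood at 347 CPM in untreated S181E and 235 CPM in untreated WT cells, and at 524 and 443 CPM after arsenite. HSPA1B, DNAJB4 and DNAJB1 differed mainly after arsenite instead.

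The cell cycle and DNA replication genes named next also rose by less in S181E, from higher levels in untreated cells. KIF20A, for example, stood at 32.9 CPM in untreated S181E and 19.7 CPM in untreated WT cells. It reached 136 and 132 CPM after arsenite. KIF20A differed by -0.70, TTK by -0.53, CCNB1 by -0.50, PLK1 by -0.46 and TOP2A by -0.40. Replication genes gave -0.71 for MCM2, -0.53 for RRM1, -0.49 for ORC1 and -0.39 for POLA1, and the repair enzyme PARP1 gave -0.78.

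Among genes that act on RNA or in translation, the differences were -0.77 for NCL and -0.46 for NOP58 of the nucleolus, -0.55 for RBM15, -0.52 for YTHDC1, -0.31 for YTHDF2 and -0.29 for ZC3H13 of the m6A machinery, and -0.41 for G3BP1, -0.37 for UBAP2L, -0.36 for TIA1 and -0.34 for ATXN2 of stress granules. Translation factors gave -0.46 for EIF5B and -0.39 for EIF3A, and synthetases -0.56 for AARS1, -0.36 for GARS1, -0.31 for LARS1 and -0.28 for EPRS1. All genes of this paragraph rose in both lines and stood higher in untreated S181E than in untreated WT cells, for example NCL at 818 against 495 CPM.

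Further negative differences were -0.65 for NFKBIA, the NF-κB inhibitor that rose in WT alone (0.63), -0.49 for ATF3, -0.47 for HMGCS1 of cholesterol synthesis, -0.44 for PSAT1 of serine synthesis, -0.41 for CTNNB1 and -0.27 for the chromatin reader BRD2.

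Of the positive differences, those of ANGPTL4 (1.77), WNT9A (1.47) and MERTK (1.45) exceeded the others given here. Genes that fell in both lines, and by less in S181E, were DKK1 (1.39), SEMA7A (1.22), KRT80 (0.91), KRTAP2-3 (0.76), MT-ND5 (0.72), MT-ND1 (0.64), CLCF1 (0.51), ID2 (0.50), IER3 (0.50) and ANKRD33B (0.34). Genes that rose in both lines, and by more in S181E, were JUN (0.95), DUSP1 (0.54), FLNA (0.46), EGR1 (0.43) and ZFP36 (0.31). HBEGF (1.07) and CTSD (0.42) were called higher in S181E and not called in WT. Whether these differences go with the S181E exchange or with the line cannot be told apart.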

How the results depend on the processing

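The number of genes called for arsenite in S181E cells stayed between 5865 and 7098 under the alternatives that kept the fold threshold or dropped it, and between 5618 (without S181E arsenite replicate 3) and 5910 when 1 library was left out. For the difference between S181E and WT the range was 1184 to 2186, and 748 (without WT control replicate 2) to 2147 (without Y396E arsenite replicate 3) with 1 library left out. For all gene types it was 6014 to 8424, and 7127 to 8429 with 1 library left out. The difference between S181E and Y396E gave 0 calls in every fit. A fold threshold of 2 left 917, 12 and 1563 genes in the first 3 of these, since fewer genes pass it by construction.

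Of 163 called changes among the 176 named genes, 158 were called in every fit that tested them, and 5 were lost in at least 1: IGF2BP3, PSMD12, MT-CO1, CTSD and H3-3B. TRIB3 was called in 14 fits. FOS, EGR2, NFKBIZ, KRTAP2-3, MED9, TNFAIP3, SKIL and WNT9A passed the expression limit in just 12 libraries, so leaving out one of those libraries took them out of the test. Of the 70 named differences 54 were called in every fit that tested them and none changed sign, and that of ANKRD33B was lost in 22.

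Some values near 0 changed sign. Under library totals the median of all genes was 0.0141, the log2 change of HSF1 was 0.027, the log2 change of NFE2L2 was 0.027 and the log2 change of NFKBIA was 0.025. In fits to only the groups compared these 3 genes gave 0.0043, 0.0044 and 0.0017, and with the replicate block there 0.0047, 0.0049 and 0.0010. With 1 library left out the ranges were -0.039 to 0.026 for HSF1, -0.043 to 0.016 for NFE2L2, -0.037 to 0.018 for NFKBIA and -0.091 to 0.0009 for HSPB1. The medians of the AP-1 and NF-κB lists turned because genes such as FOS and NFKBIZ left the test. They ranged from -0.28 to 0.17 and from -0.037 to 0.11.

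Libraries of the same replicate number were at most weakly alike. Deviations of same-numbered S181E control and arsenite libraries correlated at 0.028, 0.098 and 0.15 across genes. Those of different numbers correlated at -0.13 to 0.051, and control replicate 1 correlated best with arsenite replicate 2 (0.051). In WT cells same-numbered pairs gave 0.0285, 0.084 and 0.016, and others -0.08 to 0.0625. In Y396E cells same-numbered pairs gave 0.084, 0.094 and 0.038, and others -0.062 to -0.017. Whether the number marks a shared batch was not tested. With the replicate number as a block 5956 genes were called for arsenite, 1652 for S181E against WT, 0 against Y396E and 7438 over all gene types, and 5988, 2186, 0 and 8399 with the block in fits to only the groups compared. Depth limits low genes, and 3 libraries per group limit differences between lines to a median standard error of 0.11.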
